A study of Homo sapiens with 23 samples.

Results

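Histone H4 acetylated at lysine 5 and lysine 8 on the same tail (H4K5acK8ac) was mapped in NCI-H23 cells, and 5496 of the 60172 regions where both replicate lists had a peak carried no peak of H3K27ac and none of H3K4me3. They are called here the H4K5acK8ac regions without H3K27ac or H3K4me3. They were chosen by intersecting the 2 H4K5acK8ac peak lists and dropping each intersection that shared at least 1 bp with a peak in either replicate list of either excluded mark. The members made up 9.13% of the shared regions, with a 95% Wilson interval of 8.91% to 9.37% that covers counting error only, and 3.06% of the shared bases. The other shared regions were 29828 with H3K27ac and no H3K4me3, 1361 with H3K4me3 and no H3K27ac, and 23487 with both.

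NCI-H23 is an established line from a non-small cell lung cancer, and all libraries came from this single line. Peak lists from ChIP-seq, the sequencing of DNA recovered with an antibody against a chromatin protein, covered 11 targets with 2 replicate libraries each, and 1 input library was not analysed here. The antibody against H4K5acK8ac was a mouse monoclonal made by the submitters, and those against H3K27ac and H3K4me3 were mouse monoclonals too, whereas the remaining ones were rabbit polyclonals. The treatment protocol names the BET inhibitor JQ1 and its solvent DMSO, but the labels do not assign either to a library, so a treatment that differed between libraries cannot be told apart from the target.

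Acetylation of H4 lysines loosens the packing of nucleosomes and creates docking sites for bromodomain proteins. BRD2 is a member of the BET family, whose tandem bromodomains bind H4 tails that carry neighbouring acetyl-lysines such as those at positions 5, 8 and 12. H3K27ac marks active enhancers and promoters, H3K4me3 marks active promoters, H3K4me1 marks enhancers whether active or not, H3K36me3 lies along transcribed gene bodies, and H3K9me3 and H3K27me3 mark constitutive and Polycomb-repressed chromatin.

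Because peaks of H4K5acK8ac, H3K27ac and H3K4me3 chose the members, the membership, width, strength and distances below are descriptions. The other 8 targets were not used by the rule, and for these each share is given per library. Among them, H3K27me3 sits on the same lysine as the excluded H3K27ac. With 2 libraries a target, an exact two-sided permutation test of 2 against 2 cannot give a p below 1 in 3, so no test was made and differences were read against the spread between libraries. The labels do not say whether replicates were separate cultures, so that spread may be technical.

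Members were short and weakly enriched. Their median width was 256 bp, with quartiles of 197 and 364 bp, and 948 of them (17.2%) were narrower than 150 bp, about the DNA of a nucleosome core. The median width was 403 bp for shared regions with H3K27ac but no H3K4me3, 331 bp for those with H3K4me3 alone and 1059 bp for those with both. The median H4K5acK8ac fold enrichment over local background, a value set by the authors' peak caller, was 3.66 in replicate 1 and 3.80 in replicate 2 at members. It was 4.86 and 4.85 at regions with H3K27ac alone, and 13.0 and 13.8 at regions with both marks. In 996 members (18.1%) the weaker of the 2 peaks had a −log10 q of at least 5, against 46.8% of the regions with H3K27ac alone. These 996 had a median width of 464.5 bp, and 833 of them (83.6%) carried H4K5ac in both libraries.

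**Figure D1:**
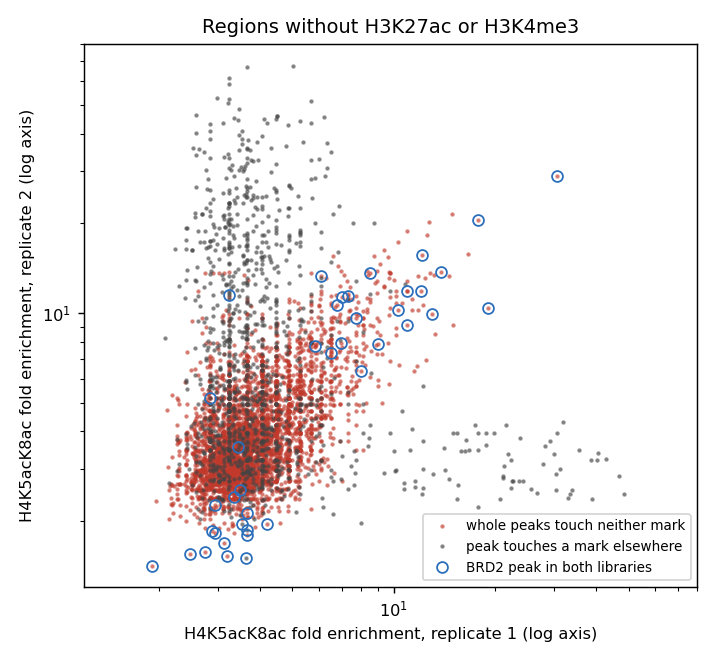
Fold enrichment of H4K5acK8ac in replicate 1 (x axis, log scale) against replicate 2 (y axis, log scale), with 1 point per member, red where neither whole peak touched an excluded mark (4304), grey where one did (1192), and blue circles around the 40 with BRD2 peaks in both libraries. The medians are 3.66 and 3.80, grey points reach high folds in a single library, and the member on chromosome 11 with folds of 30.6 and 28.8 stands at the upper right.

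Some members were the free ends of longer peaks. In 4304 members, neither of the whole H4K5acK8ac peaks behind the shared interval touched H3K27ac or H3K4me3. In the other 1192 (21.7%), a parent peak reached an excluded mark outside the shared interval, and for 865 of these it was the replicate 2 peak alone. These fragments had a median width of 224 bp against 266 bp for the isolated members. The summits of both parent peaks lay inside 14.8% of the fragments, against 68.5% of the isolated members and 56.9% of all members. Their median fold was 3.66 in replicate 1 and 5.19 in replicate 2, which describes the parent peak and not the fragment alone. At the edge of the rule, the 417 members under 100 bp from an H3K27ac peak had a median width of 224 bp and folds of 3.64 and 3.83. The 1975 regions with H3K27ac alone that shared 100 bp or less with it had a median width of 64 bp and folds of 3.66 and 3.46.

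The share of members was higher when the lists of 1 replicate were used alone, which drops both the intersection of H4K5acK8ac lists and the excluding lists of the other replicate. It was then 27.1% of the 75854 H4K5acK8ac peaks of replicate 1 and 23.1% of the 71831 of replicate 2, against 9.13% of the 60172 shared regions. Of the 35324 shared regions without H3K4me3, 15.6% were members.

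H4K5ac and H4K8ac were the targets with the highest mean shares at members, followed by H3K4me1 and H4K12ac. H4K5ac, a mark of newly placed and of active chromatin, overlapped 65.9% of members in the first library and 65.5% in the second (65.7% ± 0.244, SD, n = 2), against 83.8% and 83.4% of all shared regions. H4K8ac overlapped 66.6% and 41.6% (54.1% ± 17.7, SD, n = 2), against 67% and 47.4% of all shared regions. H4K12ac overlapped 40.6% and 35.2% (37.9% ± 3.80, SD, n = 2), against 60.9% and 57.3%. The 2 H4K5ac libraries gave nearly the same share, while the longer H4K8ac list, that of replicate 1 with 224726 peaks against 116852, met far more members.

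Counted over both libraries of a mark, 2850 members had H4K5ac in both, 1878 had H4K8ac and 1246 had H4K12ac. The corresponding shares of all shared regions were 76.5%, 41.6% and 48.9%. All 6 lists of single H4 marks had a peak at 634 members (11.5%), against 31.9% of all shared regions. None of the 6 had one at 423 members (7.70%), against 5.51% of all shared regions. The 423 members without any single mark had a median width of 188 bp and lay a median of 840 bp from H3K27ac, and 33.3% of them were fragments. The 634 members with all 6 had a median width of 456 bp, lay a median of 5859.5 bp away, and 13.2% of them were fragments.

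Against shared regions with H3K27ac but no H3K4me3, members had less H4K5ac and H4K12ac. The H4K5ac share was 15.0 percentage points lower in replicate 1 and 15.2 lower in replicate 2, beyond the 0.145 SD between libraries. That SD was taken over the same regions and does not cover how the regions were chosen. The H4K12ac share was 7.24 and 6.73 percentage points lower. H4K8ac was 7.26 percentage points higher at members in replicate 1 and 3.56 lower in replicate 2, so its direction differed between libraries. When the lists of a single replicate chose the regions, H4K5ac was 25.6 to 26.6, H4K12ac 12.04 to 17.1 and H4K8ac 8.76 to 10.5 percentage points lower at members. With H4K5acK8ac peaks of −log10 q of at least 5 alone, H4K12ac was 0.264 percentage points higher at members and H4K5ac 4.19 lower. Wide regions meet more peaks, and members were narrow, so the shares were also compared within 5 width classes.

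At equal width, H4K8ac was higher at members in every class and in both libraries. The difference ran from 4.92 to 21.1 percentage points in replicate 1 and from 6.83 to 12.9 in replicate 2. Among regions at least 250 and under 400 bp wide, 68.7% and 43.2% of members carried H4K8ac, against 47.6% and 32.9% of regions with H3K27ac alone. H4K12ac was higher at members in 4 of 5 classes in replicate 1 and in 5 of 5 in replicate 2, and H4K5ac lower in 5 of 5 and 4 of 5. The lower pooled share of H4K12ac was thus not seen within most widths. In the same width class it overlapped 44.3% and 38.2% of members against 32.1% and 26.9%, whereas H4K5ac overlapped 71.2% and 70.7% against 74.7% and 73.8%. Within 5 classes of fold enrichment H4K8ac was higher at members in 4 of 5 and 5 of 5 classes, and H4K12ac in 5 of 5 in both libraries.

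**Figure D2:**
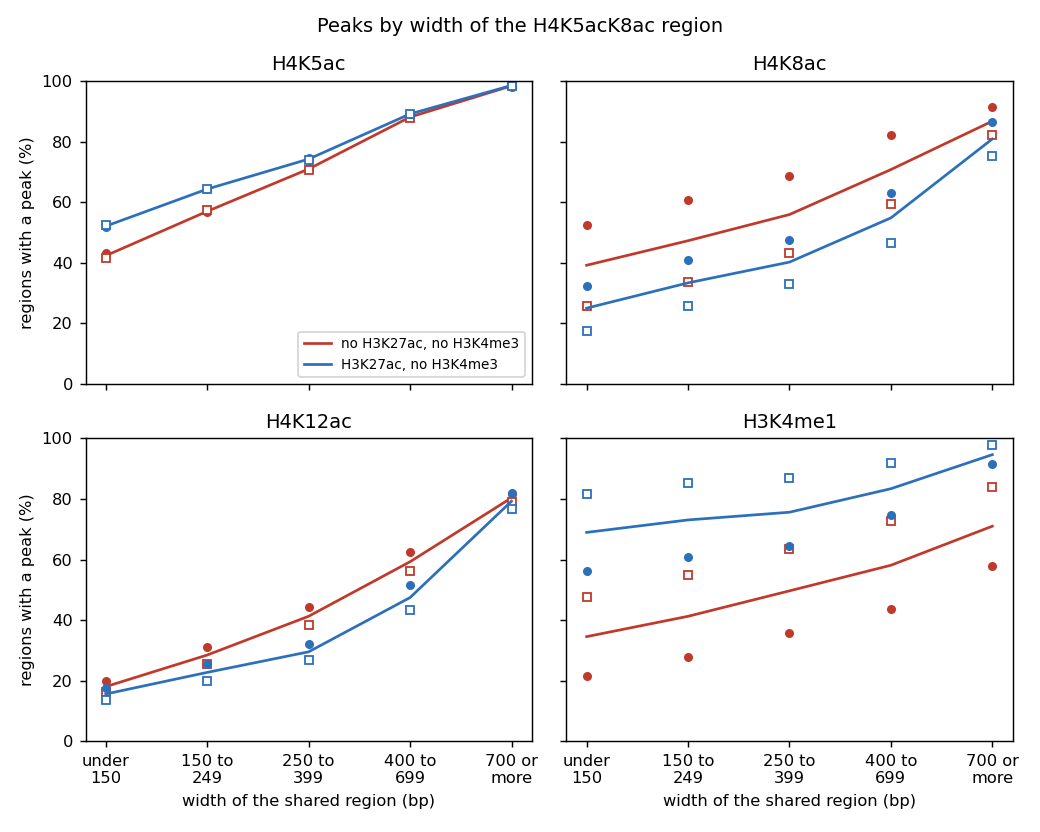
Percent of regions with a peak of each target (y axis) in 5 classes of region width in bp (x axis), for members and for shared regions with H3K27ac but no H3K4me3, with lines through the mean of 2 libraries, filled circles for replicate 1 and open squares for replicate 2. Compared within a library, H4K8ac is higher at members in each class and H3K4me1 is lower.

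The 2 residues of the double mark did not always come with peaks of their own. H4K5ac and H4K8ac were both called at 48.2% of members in the first libraries and 32.8% in the second, where regions with H3K27ac alone had 53.0% and 42.1%. H4K8ac without H4K5ac was called at 18.4% and 8.77% of members, against 6.34% and 2.97% of regions with H3K27ac alone. Neither was called at 15.7% and 25.7% of members, against 12.8% and 16.3%. H4K8ac was more frequent where H4K5ac was present, at 73.2% against 54.0% of members in replicate 1 and at 50.0% against 25.4% in replicate 2.

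The H4K5ac peaks at members were weaker than those at regions with H3K27ac alone. Their median fold was 3.56 and 3.55 in replicates 1 and 2, against 4.14 and 4.13. The median over all peaks of these H4K5ac lists was lower, at 3.29 and 3.27. For H4K8ac the median folds were close, at 3.49 and 3.41 against 3.52 and 3.55. For H4K12ac they were 3.04 and 3.33 against 3.28 and 3.42.

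H3K4me1, the enhancer mark, was present at fewer members than regions with H3K27ac. It overlapped 33.1% of members in the first library and 60.4% in the second (46.8% ± 19.3, SD, n = 2), against 66.8% and 84.4% of all shared regions. Regions with H3K27ac but no H3K4me3 stood at 72.8% and 90.3%. The difference was 39.7 percentage points in replicate 1 and 29.9 in replicate 2, both lower at members, and exceeded its SD of 6.93. It was lower at members in each of the 5 width classes and each of the 5 fold classes in both libraries.

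Both H3K4me1 libraries had a peak at 1722 members, 1 of them at 1695 and neither at 2079, whereas both had one at 66.3% of all shared regions. The replicate 2 list held 204854 peaks over 195 Mb and that of replicate 1 held 141240 over 95.8 Mb, and the shares followed that order. Where H3K4me1 was called, its peaks at members had a median fold of 3.66 and 4.57, against 5.24 and 8.55 at regions with H3K27ac alone. Among the 996 strongly enriched members, 447 (44.9%) had H3K4me1 in both libraries and 242 (24.3%) in neither.

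**Figure D3:**
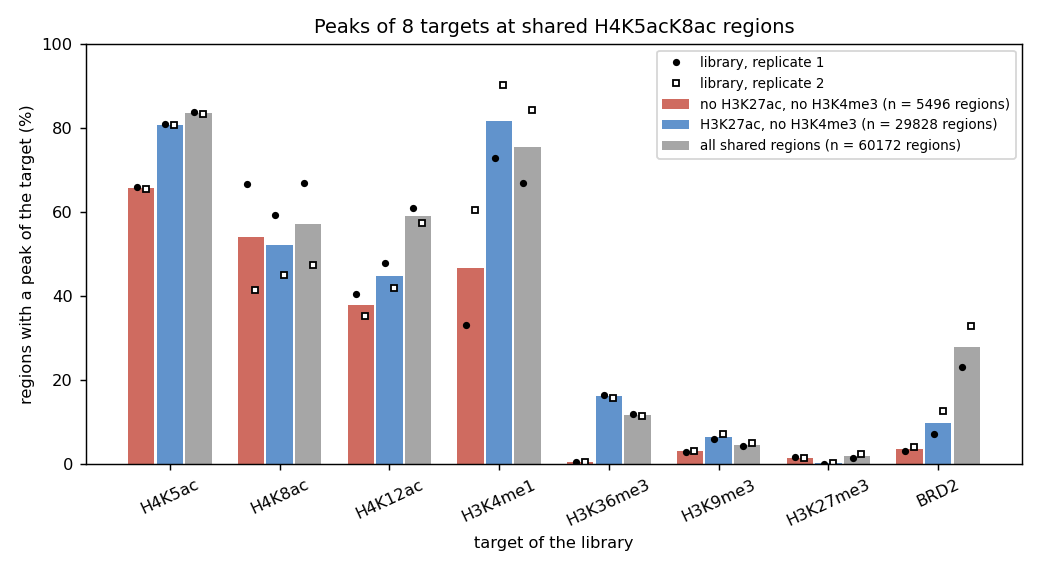
Percent of regions with a peak (y axis) for each of the 8 targets outside the rule (x axis), in members, in shared regions with H3K27ac but no H3K4me3, and in all shared regions, with bars at the mean of 2 libraries, filled circles at replicate 1 and open squares at replicate 2. H3K4me1 and H3K36me3 stand lower at members in both libraries, and H3K27me3 is the target higher at members than at regions with H3K27ac alone in both.

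Regions with H3K27ac in just 1 of its 2 libraries fell between members and regions with both for several marks. There were 6413 of these and 23415 with H3K27ac in both, all without H3K4me3. The mean share with H3K4me1 was 46.8% at members, 66.6% with 1 H3K27ac library and 85.7% with 2. H3K36me3 rose in the same order, from 0.500% through 3.08% to 19.8%, and BRD2 from 3.65% through 4.58% to 11.4%. H3K27me3 ran the other way, at 1.53%, 0.281% and 0.160%. H4K8ac had no such order, at 54.1%, 47.8% and 53.5%. Median width also grew, from 256 bp through 279 bp to 466 bp, so the order was not separated from width.

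**Figure D4:**
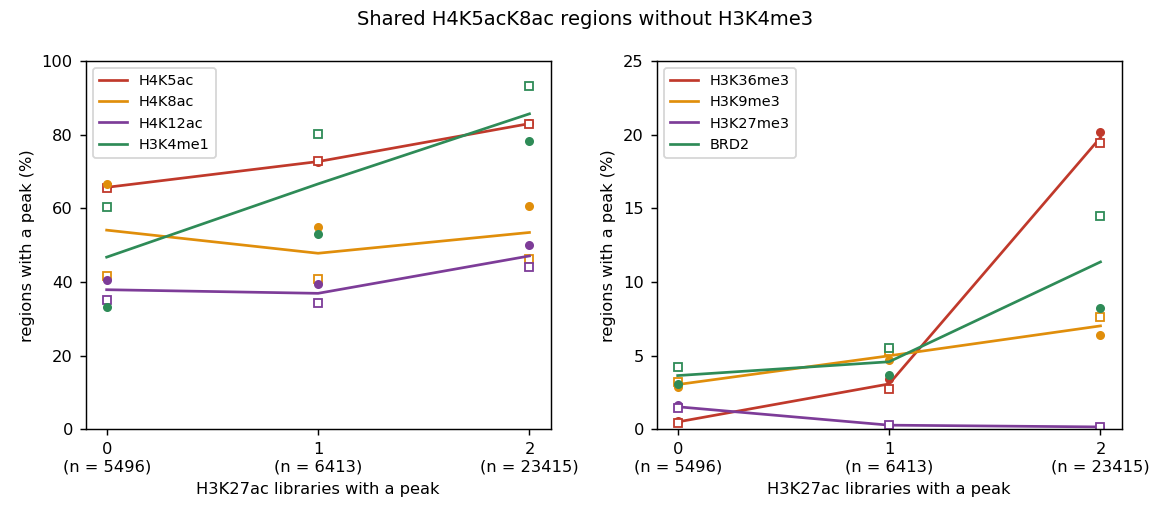
Percent of shared regions without H3K4me3 that carry each target (y axis) by the number of H3K27ac libraries with a peak there (x axis, 0 for members, then 1 and 2), with filled circles for replicate 1, open squares for replicate 2 and lines through their mean. H3K4me1 rises from 46.8% to 85.7% and H3K36me3 from 0.500% to 19.8%, while H3K27me3 falls from 1.53% to 0.160%.

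H3K36me3, the mark of transcribed gene bodies, was nearly missing. It overlapped 30 members (0.546%) in replicate 1 and 25 (0.455%) in replicate 2, with 21 in both, against 11.9% and 11.4% of all shared regions, and 9.74% in both. The low share was not particular to members. In the 1361 shared regions with H3K4me3 and no H3K27ac it was lower still, at 0% and 0.0735%. Regions with H3K27ac but no H3K4me3 stood at 16.6% and 15.9%, so the difference was 16.0 and 15.4 percentage points, beyond its SD of 0.429. The difference kept its direction in all 5 width classes and all 5 fold classes. The nearest H3K36me3 peak was a median of 35230 and 36143 bp away from members, against 12422 and 13365 bp. With the lists of 1 replicate alone, the mean share at members was 3.12% for replicate 1 and 1.40% for replicate 2, in place of 0.500%.

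The H3K27ac lists overlapped H3K36me3 more than the H4K5acK8ac lists did. Read from the other side, 99.4% and 99.5% of shared regions with H3K36me3 and without H3K4me3 had H3K27ac, against 82.0% and 82.1% of those without H3K36me3. H3K27ac peaks of either replicate covered 17.0% of the bases in H3K36me3 peaks of replicate 1 and 3.50% of the other bases, a ratio of 4.84. For the 2 H4K5acK8ac lists that ratio was 1.32 and 1.10. Of the H3K27ac peaks without H3K4me3, 46.3% to 49.2% in replicate 1 and 30.8% to 32.7% in replicate 2 overlapped H3K36me3 of replicate 1, whatever their q value, against 10.7% to 16.8% of H4K5acK8ac peaks. The part of this list property in the low H3K36me3 share of members was not tested.

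Repressive marks were rare at members, and H3K27me3 was the target higher there than at regions with H3K27ac alone in both libraries. H3K27me3, laid down by Polycomb repressive complex 2, overlapped 89 members (1.62%) in replicate 1 and 79 (1.44%) in replicate 2, with 47 in both, against 1.6% and 2.54% of all shared regions, and 1.25% in both. Among regions with H3K27ac but no H3K4me3 it overlapped 0.168% and 0.205%. Members were therefore higher by 1.45 and 1.23 percentage points, beyond the SD of 0.155, and higher in all 5 width classes and all 5 fold classes. H3K27me3 and H3K27ac sit on the same lysine and members lacked H3K27ac by rule, so this direction was not independent of the rule. How far the rule set it was not tested. The share at members was close to that of all shared regions in replicate 1 and below it in replicate 2, and the low value was that of regions with H3K27ac alone. The nearest H3K27me3 peak lay a median of 25794 and 24449 bp from members, against 82312 and 75139 bp from the latter. Of the 139 and 140 shared regions that had H3K27me3 and no H3K4me3, 35.97% and 43.6% had H3K27ac, against 82.9% to 99.5% of the regions with each of the other 7 targets. With the lists of replicate 2 alone, members were 2.22 percentage points higher in H3K27me3.

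H3K9me3, the mark of constitutive heterochromatin, overlapped 157 members (2.86%) in replicate 1 and 177 (3.22%) in replicate 2, with 103 in both, against 4.26% and 5.01% of all shared regions, and 3.16% in both. Regions with H3K27ac alone stood at 6.04% and 7.12%, so members were 3.19 and 3.90 percentage points lower, beyond the SD of 0.506. Using replicate 1 lists alone, the difference was 0.915 percentage points, lower at members. It was 0.0953 with the 20000 strongest H3K9me3 peaks of each library and 1.50 where peaks had to cover 50% of a region. The repressive marks shared members: of the 47 with H3K27me3 in both libraries, 63.8% and 68.1% had H3K9me3, against 1.90% and 2.27% of members without H3K27me3. Other targets were also more frequent at these 47. BRD2 was called at 34.0% and 31.9% against 2.70% and 3.87%, and H3K36me3 at 12.8% in both libraries against 0.447% and 0.353%. H4K12ac was called at 59.6% and 72.3% against 40.3% and 34.6%. H4K5ac was lower in both libraries, and H4K8ac and H3K4me1 differed in direction between libraries. Counting a peak in either library, every member with both H3K27me3 and H3K36me3 also had H4K12ac, H3K4me1, H3K9me3 and BRD2. Of these, 5 had all 8 targets and are among the regions with 7 or 8 targets listed below. Peaks of H3K9me3, H3K27me3 or H3K36me3 in any list were found at 309 members (5.62%), against 24.2% of regions with H3K27ac alone and 19.9% of all shared regions.

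BRD2, the bromodomain reader, was seldom called at members. It overlapped 169 of them (3.08%) in replicate 1 and 232 (4.22%) in replicate 2, with 40 in both, against 23% and 32.9% of all shared regions, and 20.5% in both. Regions with H3K27ac alone stood at 7.25% and 12.6%, or 4.17 and 8.35 percentage points higher than members, with an SD of 2.95. With the lists of replicate 1 alone it was 4.16. At equal width the direction was mixed, as BRD2 was higher at members in 4 of 5 classes in replicate 1 and 3 of 5 in replicate 2. In regions of 700 bp or more it was lower, at 11.9% and 26.0% of members against 19.98% and 36.1%. That class has no upper bound, and its median width was 852 bp at members and 1122 bp at regions with H3K27ac alone. Within 5 classes of fold enrichment BRD2 was lower at members in 4 of 5 in replicate 1 and 3 of 5 in replicate 2. Members minus regions with H3K27ac alone ran there from −9.97 to 0.820 percentage points in replicate 1 and from −12.2 to 0.529 in replicate 2. Both lowest values came from the class of fold 7 or more, which also has no upper bound. In that class the median folds were 8.75 and 10.8 at members, against 11.5 and 12.2 at regions with H3K27ac alone. The median widths were 673 bp and 1286 bp. Of the BRD2 peaks at members, 71.0% and 36.2% had a q above 0.05, against 64.7% and 28.1% of all peaks in these BRD2 lists.

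The 40 members with BRD2 in both libraries were wider and more enriched than the rest, with a median width of 494 bp and H4K5acK8ac folds of 5.96 and 7.54. H4K12ac was called at 77.5% and 92.5% of them, against 38.9% and 33.6% of members without BRD2. H3K9me3 was called at 42.5% in both libraries and H3K27me3 at 42.5% and 40.0%, against 2.49% and 2.96%, and 1.25% and 1.13%, of members without BRD2.

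These 40 fell into 2 sets of unlike chromatin. In 21 no list of H3K9me3, H3K27me3 or H3K36me3 had a peak; their median width was 768 bp, their median folds were 7.31 and 10.4, and 20 had H4K5ac in both libraries. All 6 single-mark lists had a peak at 14 of these 21. The other 19 had 1 or more of the 3 methylation marks, a median width of 445 bp and median folds of 3.53 and 1.87, and all 6 single-mark lists met 2 of them. This split used values already seen and is a description.

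At 8 members (0.146%), 7 or 8 of the 8 targets had a peak in at least 1 library. The share was higher in all shared regions, at 603 (1%), and in regions with H3K27ac alone, at 0.969%. The 8 members lay at chr2:92296831-92297065, at chr10:42385007-42385456 and chr10:42529214-42529646, at 3 places between chr18:18516973 and chr18:18520398, and at chr19:27732547-27732926 and chr19:27734530-27734790. These positions are known, as background not checked here against an annotation, to lie beside centromeres. Their H4K5acK8ac folds ran from 2.88 to 3.66 in replicate 1 and from 1.51 to 2.27 in replicate 2, below the member median of 3.80 in the latter.

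The most frequent combination of targets, counting a peak in either library and no other target, was H4K5ac with H4K8ac, H4K12ac and H3K4me1. It was found at 1425 members (25.9%), at 25.7% of regions with H3K27ac alone and at 19.3% of all shared regions. H4K5ac with H4K8ac and H3K4me1 came next at 599 members (10.9%), against 10.3% and 6.55%. Without H3K4me1, H4K5ac with H4K8ac and H4K12ac made up 510 members (9.28%), against 1.27% and 1.96%. H4K5ac with H4K8ac and nothing else made up 489 (8.90%), against 1.45% and 1.75%. None of the 8 targets was called at 205 members (3.73%), against 1.12% and 1.63%.

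Members lay a median of 2741.5 bp from the nearest H3K27ac peak of either library, with quartiles of 461 and 11549 bp, and a median of 18361 bp from H3K4me3. Isolated members lay a median of 5115 bp from H3K27ac. The 417 members under 100 bp from H3K27ac were fragments in 92.8% of cases, as were 49.8% of the 1520 at 100 to 1000 bp, but 1.78% of the 1350 at 1000 to 5000 bp. A further 1296 were 5000 to 20000 bp away, 757 were 20000 to 100000 bp away and 156 were at 100000 bp or more; each class leaves out its upper bound.

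Acetylation changed with that distance. H4K12ac averaged 25.9% ± 1.02 (SD, n = 2) under 100 bp and 48.7% ± 1.81 at 100000 bp or more, with the mean at each step of distance higher than the one before. In replicate 1 the last step was a fall, from 51.4% to 50.0%, while replicate 2 went from 43.1% to 47.4%. H4K5ac rose from 56.1% ± 1.02 to 70.8% ± 2.29 at 5000 to 20000 bp, then stood at 56.1% ± 0.453 beyond 100000 bp. H4K8ac rose from 42.3% ± 14.8 to 62.4% ± 21.4 at 5000 to 20000 bp and stood at 41.99% ± 14.1 beyond 100000 bp. Both H4K8ac libraries rose and fell this way, from 52.8% through 77.5% to 51.9% in replicate 1 and from 31.9% through 47.3% to 32.1% in replicate 2. H3K27me3 went from 0.360% ± 0.170 in the nearest class to 6.73% ± 3.17 in the farthest. H3K9me3 lay between 1.78% and 3.57% under 100000 bp and reached 17.9% ± 0.907 beyond. The median width went from 224 bp in the nearest class to 288 bp in the farthest.

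**Figure D5:**
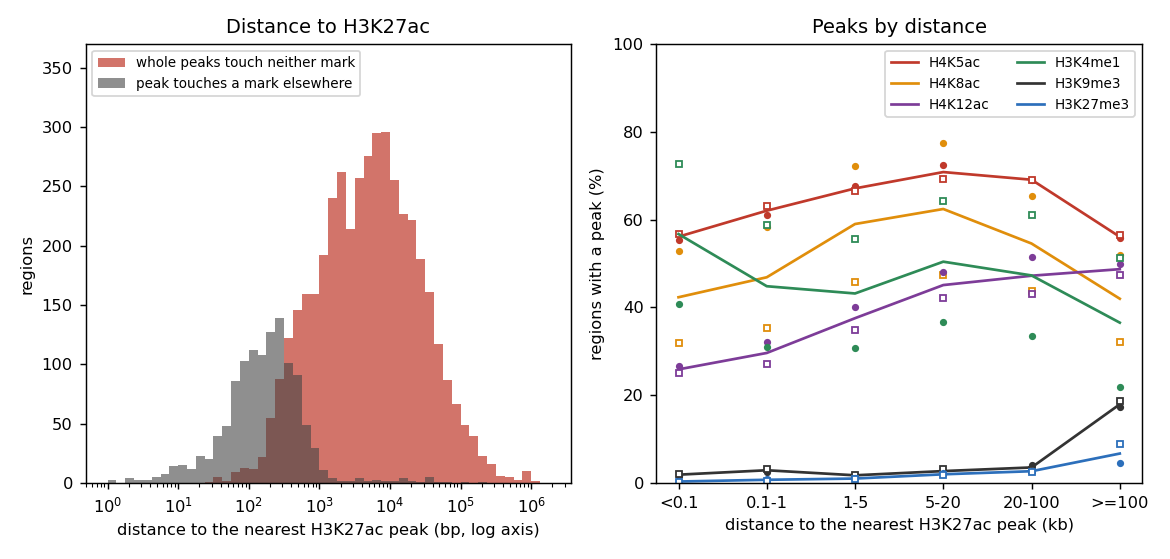
Number of members by distance to the nearest H3K27ac peak (left, x axis in bp, log scale, a distance of 0 drawn at 1 bp, fragments in grey) and percent of members with each target by distance class in kb (right, filled circles for replicate 1, open squares for replicate 2, lines through the mean). The median distance is 2741.5 bp, H4K12ac climbs from 25.9% to 48.7% with distance, and H3K9me3 reaches 17.9% in the farthest class.

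Members were scattered. Another member lay within 10000 bp of 34.0% of them, whereas 79.4% of regions with H3K27ac but no H3K4me3 had a neighbour of their own class that near, and that class is also the more numerous. Joined at that gap, 3628 members stood alone and the largest groups held 8. One group of 8 spanned chr4:40219911-40245727, where H3K4me1 was called in both libraries at 0 of 8 members and H4K5ac at 0 of 8. A further 7 members lay at chr4:40291534-40308485, where H3K4me1 was in both libraries at 0 of 7 and H4K5ac at 1. The other group of 8, at chr7:38380598-38410024, had no fragment, and H4K5ac was in both libraries at 4 of 8 and H4K8ac at 5 of 8. These groups were chosen by the number of members in them.

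Chromosome 17 held 457 members, 20.2% of its shared regions without H3K4me3 (95% Wilson interval 18.6% to 21.96%), against 15.6% over the genome. Chromosome 8 had the lowest share, at 11.5% (10.1% to 13.1%). Both were picked as the ends of the range over chromosomes 1 to 22 and X, and the copy number of each chromosome in this line was not examined.

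The most enriched member lay at chr11:57112225-57113311, 1087 bp wide and 3798 bp from the nearest H3K27ac peak. Its H4K5acK8ac fold was 30.6 in replicate 1 and 28.8 in replicate 2. H4K5ac stood at 16.2 and 14.3, H4K8ac at 6.66 and 5.73, H4K12ac at 8.67 and 8.66 and H3K4me1 at 4.41 and 5.60. BRD2 folds were 6.95 and 9.59, the highest lower value of the 38 members with BRD2 in both libraries on chromosomes 1 to 22 and X. The region thus carried each H4 acetyl mark, H3K4me1 and the reader in every library, and no peak of H3K9me3, H3K27me3 or H3K36me3.

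The member at chr22:47655148-47656356, 1209 bp wide and 46561 bp from H3K27ac, combined strong acetylation with both repressive marks. Its H4K5acK8ac folds were 17.8 and 20.5 and its H4K5ac folds 9.59 and 8.40. H3K9me3 stood at 3.64 and 4.60, H3K27me3 at 3.44 and 3.90, and BRD2 at 3.25 and 6.56, with no H3K4me1 peak. A region of the same kind at chr16:19164647-19165822 had H4K5acK8ac folds of 11.0 and 9.14, H3K9me3 folds of 2.19 and 3.68 and BRD2 folds of 3.25 and 3.83, with H3K27me3 called in replicate 1 alone.

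Acetylation without an enhancer mark was found at chr18:23501618-23502391, 774 bp wide and 100112 bp from H3K27ac. Its H4K5acK8ac folds were 16.7 and 15.8, those of H4K5ac 8.49 and 9.81, and those of H4K12ac 6.09 and 4.97. H3K4me1 had no peak there, and BRD2 was called in replicate 1 alone at 2.88.

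On chromosome 1, chr1:201528091-201529670 was 1580 bp wide with H4K5acK8ac folds of 15.0 and 21.5 and H3K4me1 folds of 5.37 and 6.58. BRD2 was called there in replicate 2 alone, at 4.77. At chr1:208057878-208059322, 1445 bp wide, the folds of H4K5acK8ac were 13.9 and 13.7 and those of BRD2 2.78 and 5.90. These 2 regions lay 6887 and 4437 bp from H3K27ac, and neither parent peak touched it.

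The widest member, chr12:655557-657648, spanned 2092 bp with H4K5acK8ac folds of 6.50 and 7.16. It had the 3 single acetyl marks and H3K4me1 in both libraries, at folds between 4.37 and 7.95, and no BRD2 peak. The third widest, chr12:38549842-38551410, spanned 1569 bp with H4K5acK8ac folds of 12.2 and 15.6 and BRD2 folds of 3.48 and 2.91.

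The other members named for BRD2 in both libraries had lower BRD2 folds than the one at chr11:57112225-57113311. At chr11:65812777-65813392 the BRD2 folds were 3.97 and 6.56 and the H4K5acK8ac folds 6.09 and 13.3. At chr10:72684802-72685772 they were 3.61 and 4.24 for BRD2 and 7.31 and 11.4 for the double mark. At chr12:54973155-54974138 BRD2 stood at 3.36 and 5.40, and H4K5acK8ac at 9.01 and 7.88. The fourth, chr19:43111106-43111329, was 224 bp wide with BRD2 at 3.50 and 3.44. All 4 had H4K5ac and H4K12ac in both libraries and none of the 3 other methylation marks H3K9me3, H3K27me3 and H3K36me3.

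Members with H3K36me3 or repressive marks looked different. The strongest H3K36me3 folds among the named regions, 12.4 and 10.3, were at chr4:6584631-6584869, where H4K5acK8ac stood at 5.998 and 4.18 and H3K9me3 at 5.36 and 2.37. At chr1:203652155-203652626 H3K36me3 folds were 4.26 and 5.61, and at chr17:80855590-80856126 they were 4.41 and 4.92, both without H3K4me1, H4K12ac and BRD2 peaks. At chr12:5998612-5999004 H3K27me3 was at 2.97 and 3.89 and H3K9me3 at 7.81 and 5.67, beside H4K5ac at 5.11 and 4.27.

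The 3 members farthest from H3K27ac with H4K5ac in both libraries lay together at chr8:47121118-47121361, chr8:47124070-47124356 and chr8:47134065-47134471, between 956779 and 969889 bp from the nearest H3K27ac peak. Their H3K9me3 folds were between 7.73 and 7.79 in replicate 1 and 6.91 in replicate 2. Their H4K5acK8ac folds ran from 3.34 to 4.20 and from 3.57 to 5.71. As near neighbours they are not independent regions.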

How the data were processed

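Peak lists of 22 ChIP-seq libraries from NCI-H23, 2 for each of 11 targets, were used as deposited. Per the submitters' processing notes, BWA and MACS2 were used with build hg19, and their versions and settings are not given in the sources used here. The fold enrichment deposited by the authors is a ratio to local background. Significance was deposited as −log10 p and −log10 q values. The deposited score and summit offset served as follows: the score was not used, and the offset gave the summit. The lowest deposited −log10 p of each list was between 2.00 and 2.11, so weak peaks are included. Read numbers are not in the lists, and depth is unknown.

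Intersections and overlaps of at least 1 bp were computed in Python 3.11.15 (pandas 2.3.3, numpy 2.4.6). Wilson intervals came from scipy 1.17.1 and figures from matplotlib 3.10.9. The interval functions were checked on simulated intervals. Groups and replicate numbers came from the sample titles. One H3K9me3 library carries another replicate number in its description than in its title, and the title was followed. Shares are means over 2 libraries with SD, without a test. Named regions, on chromosomes 1 to 22 and X, were the 5 of highest lower H4K5acK8ac fold, the 3 widest, the 3 farthest from H3K27ac with H4K5ac in both libraries, and those of highest lower fold with BRD2 (5), H3K36me3 (3), H3K4me1 without H3K36me3 (3), H3K9me3 (2) or H3K27me3 (2) in both. The regions and lists were chosen with earlier results of these data known. Alternatives covered thresholds, overlap rules, list length and left-out replicates. Genes were not analysed here. Whole-genome sequence was not used here.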

Additional observations from a re-analysis of the deposited data

Results flagged for a closer look

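Between members and shared regions with H3K27ac but no H3K4me3, H3K27me3 was higher at members in both libraries, while 6 other targets were lower in both. The gap between the H3K27me3 difference and that of the other target was 36.2 percentage points for H3K4me1, 17.1 for H3K36me3, 16.4 for H4K5ac, 8.33 for H4K12ac, 7.60 for BRD2 and 4.89 for H3K9me3. The opposite signs in each library drew attention to these pairs, and the difference between targets was not tested. H3K27me3 shares its lysine with H3K27ac, which members lacked by rule, so its sign was not independent of the rule. At equal width H4K12ac and BRD2 were higher at members in most of the 5 width classes of each library, whereas H3K4me1, H3K36me3 and H3K9me3 were lower and H3K27me3 higher in all 5 classes of both libraries. Within the 5 fold classes BRD2 was lower at members in 4 of 5 in replicate 1 and 3 of 5 in replicate 2.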

How the results depend on the processing

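Values are differences in percentage points, members minus shared regions with H3K27ac but no H3K4me3, unless stated; the cause of each shift was not tested. Of 96 values of the 8 mark differences under alternatives, 50 moved by less than the SD between libraries. Of 19 values of the share, width and distance of members, 3 stayed within the counting interval. H3K4me1, H3K36me3, H3K9me3, BRD2 and H4K5ac stayed lower and H3K27me3 higher at members under all 12 alternatives, though BRD2 and H3K9me3 came close to 0. The H4K8ac difference was above 0 under 8 alternatives and below 0 under 4, among them the 20000 strongest peaks, at −3.01. Its SD of 7.65 was wide, so moving by less than the SD did not mean keeping direction. Limiting H4K5acK8ac to peaks of −log10 q of at least 5 left 2.80% of shared regions as members, with a median width of 464.5 bp and a median distance of 5310 bp. H4K12ac then reversed to 0.264, H4K5ac was −4.19, H3K36me3 −16.2, H3K9me3 −4.50 and H3K27me3 1.85. Members at least 1000 bp from both marks were 5.80%, with a width of 271 bp and a distance of 7603 bp; H4K5ac was −12.2, H4K12ac −1.97 and H3K27me3 1.73. Mark peaks of q at most 0.05 gave −15.7 for H4K5ac. With the 20000 strongest peaks per mark, H4K5ac was −13.9, H4K12ac −5.51, H3K36me3 −6.24, H3K9me3 −0.0953, H3K27me3 0.302 and BRD2 −3.16. With windows reaching 250 bp to either side of a region's midpoint, H4K5ac was −12.1, H4K12ac −2.39, H3K36me3 −14.9, H3K9me3 −2.50 and H3K27me3 1.59. Requiring 50% of the region to be covered reversed H4K12ac to 0.722 and gave −15.4 for H4K5ac, −12.1 for H3K36me3, −1.50 for H3K9me3, 1.11 for H3K27me3 and −0.0698 for BRD2. The following 2 alternatives were chosen after seeing the data. Isolated members made up 7.15%, with H4K5ac at −14.1 and H4K12ac at −4.86, and regions of at least 200 bp gave −12.1 and −4.95.

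With the lists of 1 replicate alone, members were 23.1% to 27.1%, the width 280 to 329 bp and the distance 3427 to 6587 bp. The ranges were −26.6 to −25.6 for H4K5ac, −10.5 to −8.76 for H4K8ac, −17.1 to −12.0 for H4K12ac, −41.8 to −39.2 for H3K4me1, −19.2 to −15.5 for H3K36me3, −3.44 to −0.915 for H3K9me3, 1.36 to 2.22 for H3K27me3 and −9.00 to −4.16 for BRD2. With the replicate block, the mean of these same-numbered values, members were 25.1%, the width 304.5 bp and the distance 5007 bp. The block gave −26.1 for H4K5ac, −9.65 for H4K8ac, −14.6 for H4K12ac, −17.4 for H3K36me3, −2.18 for H3K9me3 and 1.79 for H3K27me3. Region by region, same-numbered libraries did not deviate together: over 28 pairs of targets the correlation across regions ran from −0.0323 to 0.0240. This correlation removes a shift common to all regions of a library, so it cannot show whether same-numbered libraries shared such a shift. Depth is unknown, so a missing peak in a short list cannot be told apart from a shallow library.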
